A study of Homo sapiens with 12 samples.

Results

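The α- and β-tubulin isotypes are the proteins from which microtubules are built. They were described here through 9 genes, 3 of them α isotypes (TUBA1A, TUBA1B and TUBA1C) and 6 of them β isotypes (TUBB, TUBB2A, TUBB2B, TUBB3, TUBB4B and TUBB6), out of 19775 genes named on the array. The rule lists the genes by name and uses no measured value. Every probe set annotated to exactly 1 symbol, that of a member, was included, which gave 19 of the 54675 probe sets on the array, 9 for the α genes and 10 for the β genes.

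The study placed RNA from SH-SY5Y cells, a neuron-like line from a human neuroblastoma, on 12 Affymetrix expression arrays. There were 4 groups of 3 arrays: cells given fibrillar amyloid-β (Aβ) with an incubation of 24 h, their controls at 24 h, cells given oligomeric Aβ with an incubation of 6 h, and their controls at 6 h. All groups share the same cell line, and the labels name no agent for the controls. The form of Aβ and the hours changed together, so their effects cannot be told apart, and no label states whether the hours refer to the peptide or to the exposure of the cells. Nothing in the labels says that replicates were separate cultures, so the p-values cover only how these samples spread, which may be technical.

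Microtubules are hollow polymers of α/β-tubulin dimers, and they carry transport along neurites and form the mitotic spindle. Vertebrates encode several isotypes of each subunit, which differ mostly at the tail and in where they are made. TUBB3 is the β isotype used as a marker of neurons, TUBB2A and TUBB2B are β isotypes abundant in brain, and TUBA1A is the main α isotype of young neurons. TUBB, TUBB4B, TUBA1B and TUBA1C are made in many cell types, including dividing cells, and TUBB6 is a further β isotype. Cells also adjust tubulin mRNA to the amount of free tubulin dimer, by degrading the mRNA on the ribosome while the nascent tubulin chain is recognised.

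The upstream sequences of 3 β-tubulin genes are shown because their levels followed 3 different courses over the groups: TUBB2A was low only in the 24 h controls, TUBB2B was highest with fibrillar Aβ, and TUBB4B was lower in both 24 h groups. Each is the stretch of 250 bases before the annotated start in RefSeq (GRCh38.p14), 5′ to 3′ on the strand of the gene. Capitals mark TATAAA (the TATA box), CCAAT (the CCAAT box) and TGACGTCA or TGACG (the cAMP response element and its core, with the core lying inside the full element), each searched on both strands.
TUBB2A, chr6:3157545-3157794, minus strand: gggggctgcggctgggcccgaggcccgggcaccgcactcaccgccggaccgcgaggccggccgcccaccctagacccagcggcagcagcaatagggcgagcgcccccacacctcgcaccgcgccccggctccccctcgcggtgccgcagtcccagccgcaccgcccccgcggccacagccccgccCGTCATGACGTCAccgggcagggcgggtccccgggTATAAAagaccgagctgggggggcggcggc
TUBB2B, chr6:3227654-3227903, minus strand: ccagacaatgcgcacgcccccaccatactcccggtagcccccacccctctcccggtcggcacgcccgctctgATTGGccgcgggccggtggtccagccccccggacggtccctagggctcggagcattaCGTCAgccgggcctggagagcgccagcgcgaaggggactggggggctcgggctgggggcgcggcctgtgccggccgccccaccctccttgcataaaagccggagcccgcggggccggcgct
TUBB4B, chr9:137241037-137241286, plus strand: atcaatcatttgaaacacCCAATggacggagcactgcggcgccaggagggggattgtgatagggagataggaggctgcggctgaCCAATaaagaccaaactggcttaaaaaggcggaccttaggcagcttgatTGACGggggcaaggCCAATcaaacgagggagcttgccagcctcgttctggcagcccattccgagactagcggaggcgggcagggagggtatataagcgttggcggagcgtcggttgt

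All 9 genes matched the RefSeq table, with 14 annotated starts among them, against 35116 promoters in the table. TATAAA was in 1 of the 14 windows, that of TUBB2A, where its first base lay 30 bases before the start. It was in 10.7% of all promoters, and the lack of a match says only that these letters are not in a window. TGACGTCA was also in the TUBB2A window alone among the members, 60 bases before the start, against 1.65% of all promoters. The shorter TGACG was in 4 of the 14 windows and in 21.2% of all promoters, with matches in TUBB2A at 65, 60 and 57 bases before the start, the last 2 of them inside TGACGTCA. CCAAT was in 9 of the 14 windows and in 32% of all promoters, with 3 matches in TUBB4B and 1 in TUBB2B. Some windows of TUBA1C overlap, so a match there can be counted more than once. GGGCGG (the GC box, searched on both strands and left in lower case) was in 8 of the 14 windows and in 42.6% of all promoters. TUBB2A and TUBB2B are neighbours on chromosome 6, where TUBB also lies. TUBA1B, TUBA1A and TUBA1C stand next to each other on chromosome 12. TUBB4B lies on chromosome 9, TUBB3 on 16 and TUBB6 on 18.

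The values are log2 MAS5 signals, in which a difference of 1 is a change by a factor of 2 in signal. Array medians ran between 3.89 and 4.12, and precision is limited by how many arrays there were. The cells carried neuroblastoma markers: 12 of the 13 noradrenergic neuroblastoma markers on the array had a mean above the filter on low values (log2 3.79), with TH, the enzyme that makes the dopamine precursor, below it. Markers of the mesenchymal state of neuroblastoma were above it too for 5 of 6 (FN1, VIM, SNAI2, YAP1 and CD44). Of the markers of blood and endothelial cells, 2 of 6 were above the filter (HBB and PECAM1). So were 2 of 5 for epithelium (EPCAM and KRT18) and 1 of 4 for glia (S100B). The others of these lists were below the filter, PTPRC, CD14 and GFAP among them. The filter is the median of all probe sets, so passing it says little about a gene's level. In the 24 h controls, the linear signals of the noradrenergic list summed to 20715 to 22481, and of the mesenchymal list to 9784 to 11629. The sums were 39 to 80 for blood and endothelium, 70 to 77 for epithelium and 29 to 58 for glia.

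Tubulin probe sets were among the brightest on the array. The 8 tested α probe sets averaged 12.95 to 13.74 over the 12 arrays, and at most 0.285% of all probe sets were brighter than any of them. The β probe sets averaged 10.13 to 11.84, with 0.721% to 2.95% of probe sets brighter. The highest value of any probe set on any array was 14.66. Whether signals this bright respond less to a change in RNA was not tested. These ranks compare probe set signals, which also depend on the probes, and give no order of RNA amounts between genes. Of the 19 probe sets, 14 carry the suffix _x_at and 1 the suffix _s_at, which mark probes that can match more than 1 transcript, as the coding regions of tubulin genes are alike. The tested probe sets with no such mark belong to TUBB2A, TUBB (1 of its 3) and TUBB6. 1 TUBA1B probe set with no mark (1565668_at, mean 1.18) lay below the filter and was not tested, so 18 entered the tests.

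**Figure D1:**
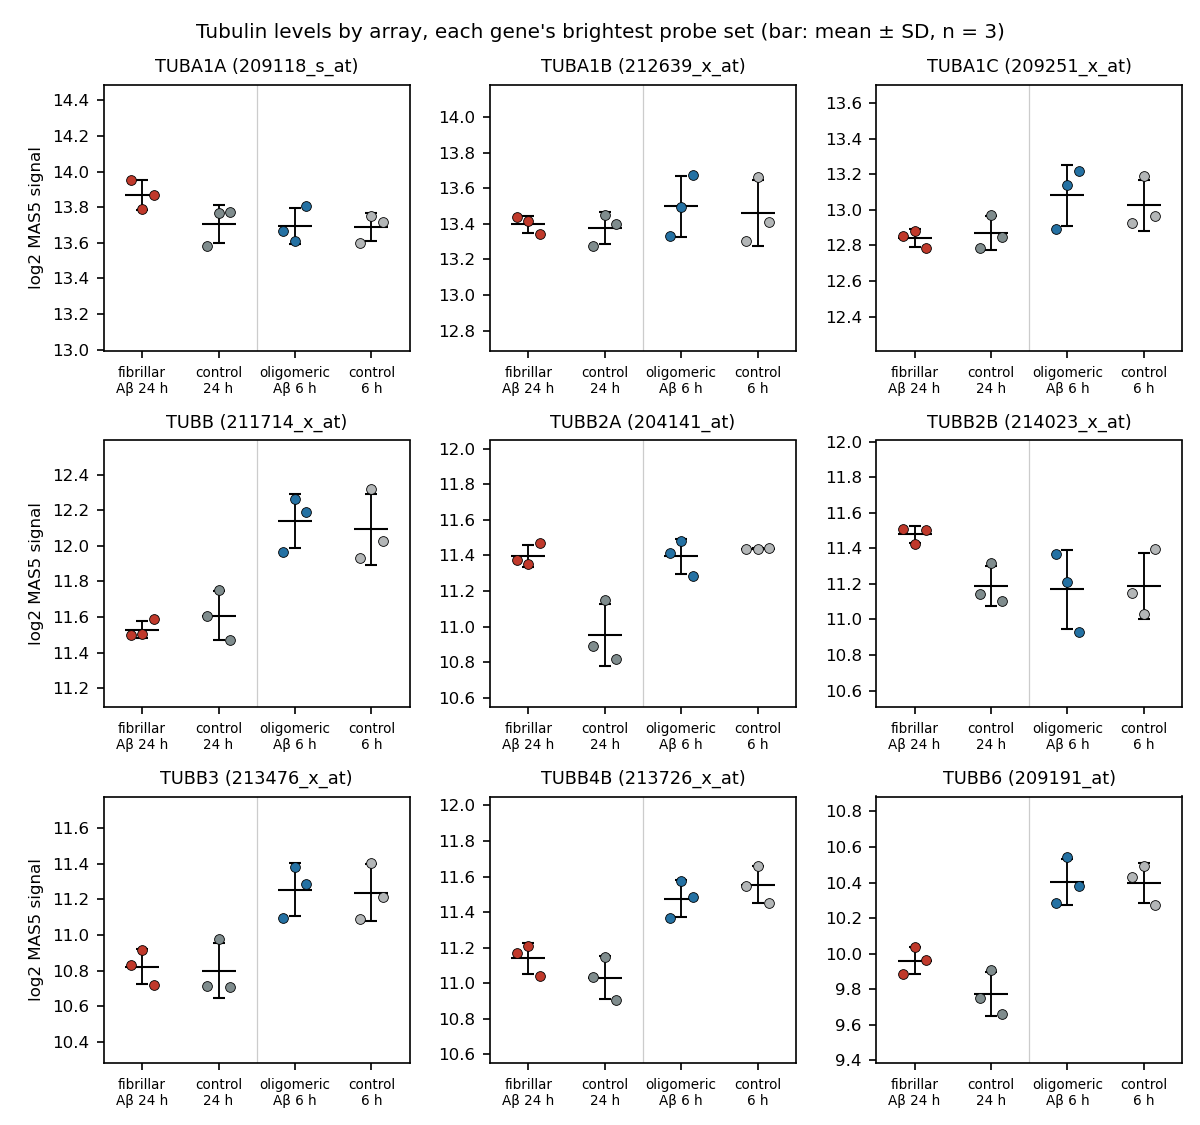
Log2 MAS5 signal of each gene's brightest probe set on every array, with the groups along the x axis from fibrillar Aβ at 24 h to the 6 h controls; points are arrays and bars are mean ± SD (n = 3). Scales span the same height in each panel, and TUBB, TUBB3, TUBB4B and TUBB6 sit lower in both 24 h groups, while TUBB2A is low in the 24 h controls alone.

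The 24 h controls against the 6 h controls showed the largest movement of these genes. The brightest probe set of each gene was tested in a limma fit across all 11767 genes that passed the filter, and a gene was called where its Benjamini-Hochberg adjusted p was under 0.05. At 24 h, 5 of the 9 genes were lower and none was higher. All 5 were β isotypes (5 of 6), and no α isotype (0 of 3) passed the test. The calls of TUBB6 and TUBB2A came from probe sets with no cross-hybridization mark. Those of TUBB, TUBB3 and TUBB4B came from _x_at probe sets, which may also read other isotypes. Over all genes tested, 7.92% were called lower. The median change of the 9 genes was -0.44, with -0.48 for the β genes and -0.08 for the α genes, beside a median of -0.02 over all genes. The difference between the α and β genes was not itself tested. In RNA pooled from many cells, less RNA per cell cannot be told apart from fewer cells that make it.

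TUBB6 had the largest fall of the 9. It read 9.75, 9.91 and 9.66 in the 24 h controls, against 10.43, 10.49 and 10.27 in the 6 h controls. Every 24 h control array lay below every 6 h control array. The change was -0.62 (SE 0.09, n = 3 each, limma adjusted p = 0.000295), a signal 0.649 times that of the 6 h controls, and its probe set has no cross-hybridization mark.

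TUBB4B, a widely made isotype that is also part of ciliary axonemes, read 11.03, 11.15 and 10.91 at 24 h, against 11.55, 11.66 and 11.45 at 6 h in the controls. The groups did not overlap, and the change was -0.52 (SE 0.08, limma adjusted p = 0.000688). TUBB2A read 10.89, 11.15 and 10.82 in the 24 h controls, against 11.44, 11.44 and 11.44 in the 6 h controls, where the arrays were nearly equal. Its change was -0.49 (SE 0.08, limma adjusted p = 0.00125), again with no overlap and from a probe set with no mark.

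TUBB, the constitutive β isotype, read 11.60, 11.75 and 11.47 in the 24 h controls, against 11.93, 12.32 and 12.03 in the 6 h controls. The change was -0.48 (SE 0.10, limma adjusted p = 0.00525), with the groups apart. TUBB3 read 10.72, 10.98 and 10.71 in the 24 h controls, against 11.09, 11.41 and 11.21 in the 6 h controls. The groups were apart here as well, with a change of -0.44 (SE 0.10, limma adjusted p = 0.00848). Without the second 6 h control array the change of TUBB3 was -0.35 (limma adjusted p = 0.0538), and the call was lost. With the other 5 arrays of these groups left out in turn, it was called each time.

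The 5 genes called were also the 5 whose groups did not overlap, and 18.9% of all genes had every 24 h control below every 6 h control. TUBB2B, the sixth β isotype, read 11.14, 11.32 and 11.10 in the 24 h controls, against 11.15, 11.03 and 11.39 in the 6 h controls. These groups overlapped, the change was -0.0032 (SE 0.10, limma adjusted p = 0.99), and the 95% interval ran from -0.22 to 0.22. TUBA1A read 13.58, 13.77 and 13.77 in the 24 h controls, against 13.60, 13.75 and 13.72 in the 6 h controls, a difference of 0.02 (interval -0.15 to 0.18). TUBA1B differed by -0.08 (interval -0.29 to 0.12) and TUBA1C by -0.16 (interval -0.35 to 0.03), both with overlapping groups. With each array centred on its median, which moved the median of all genes by -0.13, TUBA1C was called too (-0.29, limma adjusted p = 0.0461), and all 9 genes were on the lower side.

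Genes with several probe sets kept their direction across them. In a limma fit over 27281 probe sets, 8 of the 18 tubulin probe sets were called lower in the 24 h controls, all of them β, against 4.64% of all probe sets. The second probe set of TUBB3 (202154_x_at) changed by -0.63 (limma adjusted p = 0.000445) and that of TUBB4B (208977_x_at) by -0.60 (limma adjusted p = 0.000539). For TUBB, 209026_x_at changed by -0.38 (limma adjusted p = 0.0426), while 212320_at, the probe set with no mark, gave -0.32 and was not called (limma adjusted p = 0.064). The 5 tested probe sets of TUBA1B gave -0.19 to -0.08 and those of TUBA1C -0.21 and -0.16, none of them called. In 10 of the 18 the 24 h controls lay wholly below the 6 h controls, 9 β and 1 α, against 13.8% of all probe sets.

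A measure of RNA integrity moved with these groups, the signal of a control gene's 3′ probe set less that of its 5′ probe set. For GAPDH it was 0.47 to 0.52 in the 24 h controls, against 0.77 to 0.83 in the 6 h controls. For ACTB it was 2.34 to 2.65 in the 24 h controls, against 2.82 to 3.25 in the 6 h controls, so neither pair overlapped. With the mean of the 2 values as a covariate, all 5 genes were called lower, from -0.74 for TUBB6 (limma adjusted p = 0.00565) to -0.51 for TUBB2A (limma adjusted p = 0.0332). The changes were larger than without it, as for TUBB at -0.62, against -0.48. That mean was 1.43 to 1.58 in the 24 h controls, against 1.80 to 2.04 in the 6 h controls. As these do not overlap, the fit cannot tell RNA integrity and the hours apart.

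**Figure D2:**
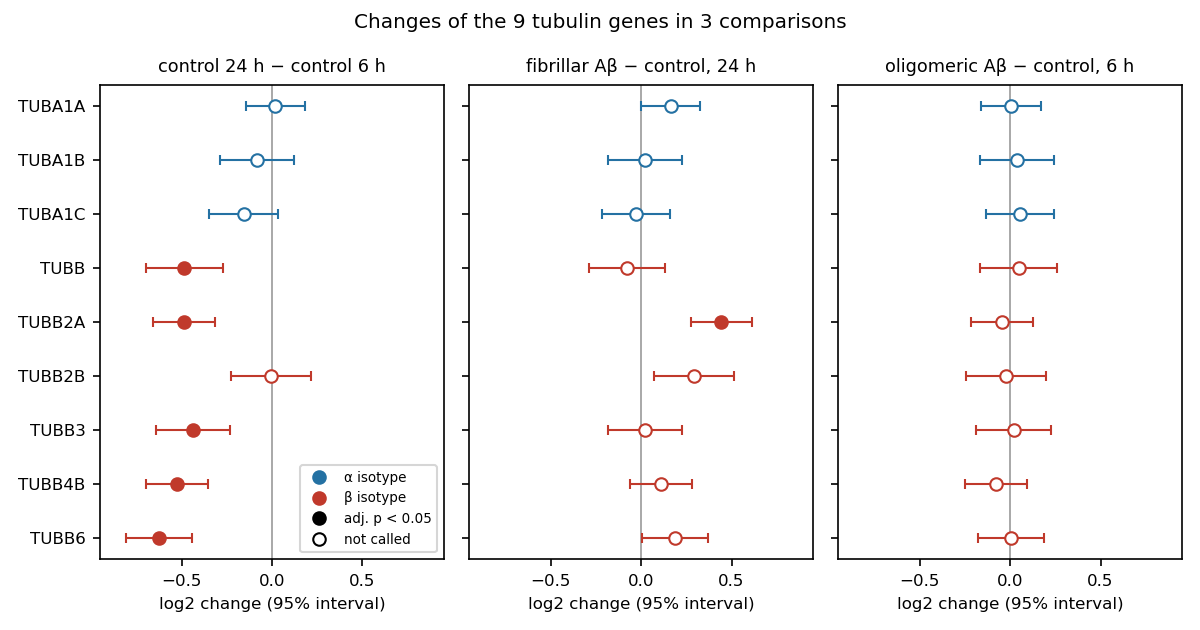
Log2 change of each gene's brightest probe set in 3 comparisons, with 95% intervals from the limma fit; the x axis is the log2 difference and filled points passed an adjusted p of 0.05. The 5 filled β genes in the first panel lie between -0.62 and -0.44, TUBB2A alone is filled in the fibrillar panel at 0.44, and no point is filled in the oligomeric panel.

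Fibrillar Aβ against the 24 h controls asks which genes differed after incubation with the fibrillar peptide. Here TUBB2A was the only one of the 9 called, and it was higher, where 0.799% of all genes were called higher. TUBB2A read 11.37, 11.35 and 11.47 with fibrillar Aβ, against 10.89, 11.15 and 10.82 in the 24 h controls. Every fibrillar array was above every control array. The means were 11.40 ± 0.06 with fibrillar Aβ and 10.95 ± 0.17 in the controls (SD, n = 3 each). The change was 0.44 (SE 0.08, interval 0.27 to 0.61, limma adjusted p = 0.0151), a signal 1.36 times that of the controls. In the fit over probe sets it was again the only tubulin probe set called of 18 (limma adjusted p = 0.0262), where 0.282% of all probe sets were called higher.

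The TUBB2A call rests on few arrays. Leaving out each of the 6 arrays in turn gave changes of 0.38 to 0.54, and the gene was called in 3 of these 6 fits. The call was lost without the third fibrillar array (limma adjusted p = 0.0941), the first 24 h control (limma adjusted p = 0.0878) or the third 24 h control (limma adjusted p = 0.0822). It was also lost with the 3′ less 5′ covariate, where the change was 0.46 (limma adjusted p = 0.0518), and in a fit of these 2 groups alone (limma adjusted p = 0.0552). The GAPDH 3′ less 5′ value reached 0.81 with fibrillar Aβ (lowest 0.49), against at most 0.52 in the 24 h controls (lowest 0.47).

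TUBB2B had the next highest change. It read 11.51, 11.42 and 11.50 with fibrillar Aβ, against 11.14, 11.32 and 11.10 in the 24 h controls. The groups did not overlap, yet the change of 0.29 (SE 0.10, interval 0.07 to 0.51) did not pass the test (limma adjusted p = 0.211). Its probe set carries the _x_at mark, and the coding sequences of TUBB2A and TUBB2B are close to identical, so how far it also reads TUBB2A RNA was not tested.

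TUBA1A read 13.96, 13.79 and 13.87 with fibrillar Aβ, against 13.58, 13.77 and 13.77 in the 24 h controls. These groups were apart by a narrow margin, and the change of 0.16 was not called (limma adjusted p = 0.352). Together with TUBB2A, 3 of the 9 genes had every fibrillar array above every control, where 11% of all genes did. TUBB6 read 9.88, 10.04 and 9.96 with fibrillar Aβ, against 9.75, 9.91 and 9.66 in the controls, a change of 0.19 (limma adjusted p = 0.336) with overlap.

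The other 5 genes did not pass the test either. At an unadjusted p under 0.05 there were 4 of the 9 genes (TUBB2A, TUBB2B, TUBB6 and TUBA1A), against 14.2% of all genes. TUBB4B differed by 0.11 (limma adjusted p = 0.603), and TUBB3 by 0.02 and TUBA1B by 0.02 (limma adjusted p = 0.948 for both). TUBA1C differed by -0.03 (limma adjusted p = 0.924) and TUBB by -0.08 (limma adjusted p = 0.791). The neuronal isotype TUBB3 read 10.83, 10.92 and 10.72 with fibrillar Aβ, against 10.72, 10.98 and 10.71 in the controls, with an interval of -0.18 to 0.23 for the change. Its other probe set differed by 0.17 (limma adjusted p = 0.409). For TUBB the other probe sets differed by -0.18 and -0.23, and on 209026_x_at every fibrillar array lay below every control, without a call. The median over the 9 genes was 0.11, beside -0.00054 over all genes.

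**Figure D3:**
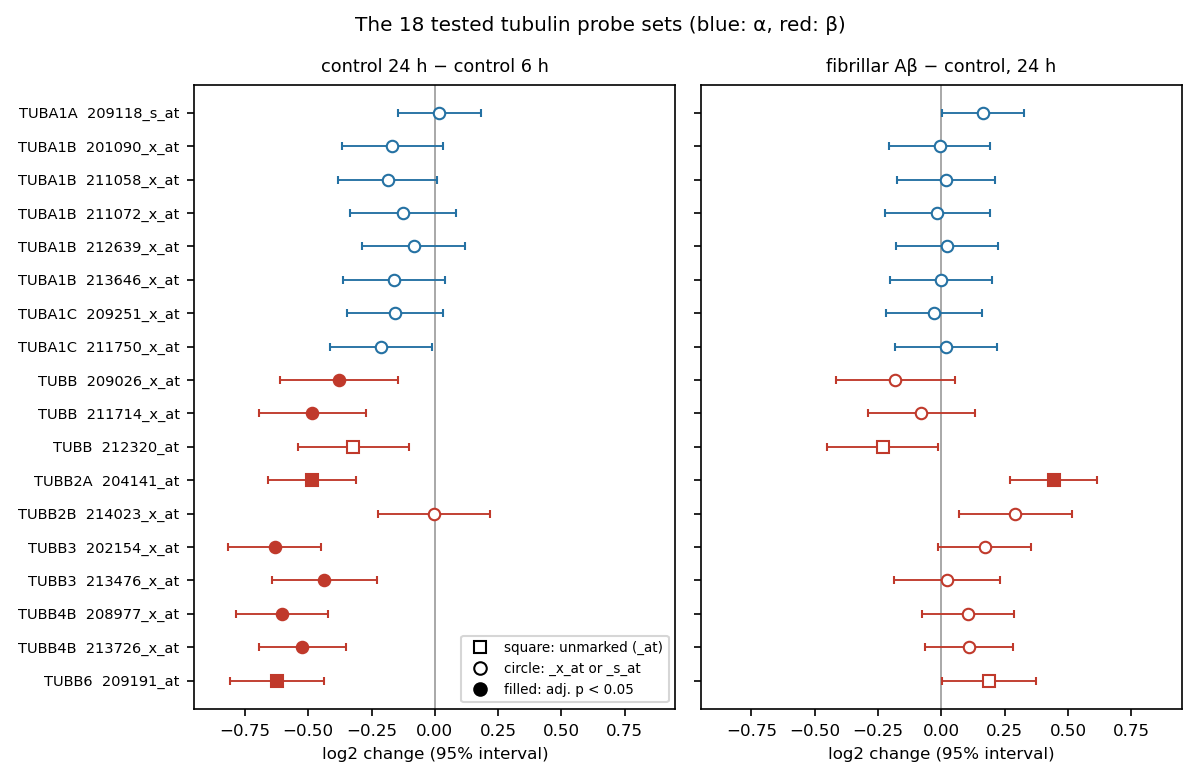
Log2 change of each of the 18 tested probe sets with its 95% interval, in the 24 h controls against the 6 h controls and in fibrillar Aβ against the 24 h controls; squares have no cross-hybridization mark and filled symbols passed an adjusted p of 0.05. In the first panel 8 β probe sets are filled and lower, and in the second only TUBB2A is filled, at 0.44.

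Oligomeric Aβ against the 6 h controls gave no call among these genes. None of the 9 passed the test (0 of 9), and neither did any of the 11767 genes (0%) in the limma fit. At an unadjusted p under 0.05 there were still 0 of the 9, against 2.78% of all genes. No member had groups apart, where 7.36% of all genes did. The changes ran from -0.08 for TUBB4B to 0.06 for TUBA1C, and every 95% interval lay between -0.25 and 0.26. For these brightest probe sets, differences beyond 1.19-fold lower or 1.2-fold higher were outside the intervals. Over all 18 probe sets the intervals were wider, down to -0.35 for 208977_x_at of TUBB4B and up to 0.29 for 211072_x_at of TUBA1B.

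The arrays show the overlap gene by gene. TUBB3 read 11.09, 11.38 and 11.29 with oligomeric Aβ, against 11.09, 11.41 and 11.21 in the 6 h controls. TUBB2A read 11.41, 11.48 and 11.29 with oligomeric Aβ, against 11.44, 11.44 and 11.44 in the 6 h controls. TUBB6 read 10.29, 10.55 and 10.38 with oligomeric Aβ, against 10.43, 10.49 and 10.27 in the 6 h controls. In each of these genes the treated and the control arrays overlapped. TUBA1A was 13.66, 13.61 and 13.81 with oligomeric Aβ, against 13.60, 13.75 and 13.72 in the controls. The second probe set of TUBB4B had the largest difference of the 18, at -0.17, and was not called (limma adjusted p = 0.999987).

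The response to fibrillar Aβ less the response to oligomeric Aβ was tested in the same fit. None of the 9 genes was called (0 of 9), against 0.0425% of all genes, and 1 of the 9 had an unadjusted p under 0.05, against 8.53% of all genes. That gene was TUBB2A, with responses of 0.44 to fibrillar and -0.04 to oligomeric Aβ. The difference of 0.49 (SE 0.11, interval 0.25 to 0.73) did not pass the adjustment (limma adjusted p = 0.151). For TUBB2B the difference was 0.31 (limma adjusted p = 0.585) and for TUBB -0.13 (limma adjusted p = 0.862). The call of TUBB2A with fibrillar Aβ is therefore not shown to differ from the oligomeric response.

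The levels over all 4 groups give each gene's order. TUBB3, TUBB4B and TUBB6 were highest in the 2 groups at 6 h, which overlapped each other, and lower in the 2 groups at 24 h, which also overlapped each other. TUBB had the same split, with means of 11.53 ± 0.05 with fibrillar Aβ, 11.61 ± 0.14 in the 24 h controls, 12.14 ± 0.15 with oligomeric Aβ and 12.09 ± 0.20 in the 6 h controls (SD, n = 3 each). TUBB2A departed from this order. Its fibrillar arrays (11.35 to 11.47) lay inside the range of the oligomeric arrays (11.29 to 11.48), and the 24 h controls stood apart below all other groups. The fibrillar and the time comparison of TUBB2A share the 24 h controls, so the higher value in one and the lower value in the other are not independent of each other.

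TUBB2B had its highest group with fibrillar Aβ (11.48 ± 0.05), apart from the other 3, which overlapped at 11.19 ± 0.11 in the 24 h controls, 11.17 ± 0.22 with oligomeric Aβ and 11.19 ± 0.19 in the 6 h controls. TUBA1A averaged 13.87 ± 0.08 with fibrillar Aβ, apart from the 24 h controls next to it at 13.71 ± 0.11 (SD, n = 3 each), and its other neighbours overlapped. For TUBA1B and TUBA1C every pair of neighbouring groups overlapped. TUBA1C averaged 12.84 ± 0.05 with fibrillar Aβ, 12.87 ± 0.09 in the 24 h controls, 13.08 ± 0.17 with oligomeric Aβ and 13.03 ± 0.14 in the 6 h controls (SD, n = 3 each).

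The fibrillar arrays at 24 h and the oligomeric arrays at 6 h share no control and were set side by side without a test. With fibrillar Aβ, 5 genes lay wholly below the oligomeric arrays, where 16.9% of all genes did. These were TUBB (-0.61), TUBB6 (-0.44), TUBB3 (-0.43), TUBB4B (-0.34) and TUBA1C (-0.24). TUBB2B (0.31) was the 1 gene wholly above, where 14.3% of all genes were. TUBB2A (0.0024), TUBA1A (0.18) and TUBA1B (-0.10) overlapped. TUBB, TUBB3, TUBB4B and TUBB6 thus differed in the same direction between the 24 h and the 6 h arrays of treated cells and of control cells.

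Within groups the arrays shifted several isotypes at once. The second 24 h control array was above its group's mean for 9 of the 9 genes, and the first was below it for 8. The first 6 h control array was below its group's mean for 8 of the 9. Over the 36 pairs of genes, the Pearson correlation of deviations from the group means had a median of 0.47 over the 12 arrays, with a range of -0.58 to 0.95. TUBA1B and TUBA1C were highest at 0.95, and TUBB4B and TUBB6 reached 0.85. These values are a description, since the genes share arrays, scaling and, in part, probe sequence.

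The gene most like each isotype was found by Pearson correlation over the 12 arrays, which fall into a 6 h and a 24 h set. For TUBB2A it was ACTA2, the smooth muscle form of actin (r = 0.960), which differed by -1.16 in the 24 h against the 6 h controls and by 1.17 with fibrillar Aβ against the 24 h controls. For TUBB2B it was EIF1AX, a translation initiation factor (0.969), and for TUBA1A it was MYL6, a myosin light chain (0.959). For TUBB4B it was FAF1 (0.983), for TUBB6 the kinase JAK1 (0.978), for TUBB3 the centromere protein CENPO (0.977) and for TUBB the RNA-binding protein PCBP1 (0.975). TUBA1C was nearest to ATP6V1B2, a subunit of the vacuolar proton pump (0.928), and TUBA1B to ARG2, the mitochondrial arginase (0.923). Each had the highest r of all genes tested, with the isotypes and a list of other tubulins left out. A high r and like changes over the groups, as for ACTA2, therefore follow from the choice.

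Genes that fold, nucleate, modify or sever tubulin were read from 6 lists, with 72 of 89 genes tested. In the 24 h against the 6 h controls, 1 of the 72 was called higher and 7 lower, where 11.7% of all genes were called in either direction. The 9 isotypes thus had a larger share called than these lists together, although the difference was not tested. The shares do not compare like with like. The SE was 0.08 to 0.10 for the isotypes, against 0.52 for TTLL11 (4.50 in the 24 h controls) and 0.37 for TUBGCP6 (4.75). Other listed genes were bright, such as CCT2 (12.01, SE 0.06). The calls of TUBB, TUBB3 and TUBB4B came from _x_at probe sets, which may read each other's RNA.

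The chaperonin CCT and prefoldin fold new actin and tubulin chains. Of 13 such genes 1 was called in the 24 h against the 6 h controls, the prefoldin subunit PFDN1 (-0.63, limma adjusted p = 0.0148), and the list's median was -0.0203, beside -0.0163 for all genes. Of 11 genes of the tubulin cofactors, which assemble the α/β dimer, and of mRNA autoregulation, 3 were lower, where 7.92% of all genes were. TBCB, which takes up α-tubulin, averaged 9.40 ± 0.09 in the 24 h controls, against 9.85 ± 0.18 in the 6 h controls (-0.45, limma adjusted p = 0.00676). TBCD, which binds β-tubulin, changed by -0.39 (limma adjusted p = 0.0314), and CNOT11, a subunit of the deadenylase complex recruited to tubulin mRNA, by -0.25 (limma adjusted p = 0.045). The probe set of TBCB carries the _x_at mark and that of TBCD the _s_at mark. TTC5, which recognises nascent tubulin, had a difference of -0.24 and was not called (limma adjusted p = 0.48); it was named for its role, after its value was seen.

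Among 20 genes of the γ-tubulin complex and of nucleation, 2 were lower and 1 higher in the 24 h against the 6 h controls. CKAP5, a microtubule polymerase, changed by -0.37 (limma adjusted p = 0.0106) and NEDD1, which targets the γ-tubulin ring to the centrosome, by -0.23 (limma adjusted p = 0.0366). MZT2B, a small subunit of that ring, changed by 0.49 on an _x_at probe set (limma adjusted p = 0.0381). The probe set of CKAP5 carries the _s_at mark. Of 18 enzymes that modify tubulin 1 was called, VASH1, which removes the terminal tyrosine of α-tubulin. VASH1 averaged 5.85 ± 0.07 in the 24 h controls, against 6.75 ± 0.11 in the 6 h controls, a change of -0.89 (limma adjusted p = 0.00311). Its probe set carries the _s_at mark.

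None of the 7 severing enzymes (median 0.17, 2 with an unadjusted p under 0.05) and none of the 3 other tubulins tested (median 0.26, 2 with an unadjusted p under 0.05) was called in the limma fit between the controls, where 26.6% of all genes had such an unadjusted p. The medians of the cofactor, nucleation and modification lists were -0.04, -0.06 and -0.16.

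With fibrillar Aβ against the 24 h controls, none of the 72 listed genes was called (limma), where 1.19% of all genes were called in either direction. Of the 72, 6 had an unadjusted p under 0.05, where 14.2% of all genes did. The list medians ran from -0.05 to 0.09. The gene with the smallest p in each list was TUBD1 (δ-tubulin, -0.39, limma adjusted p = 0.17), HAUS2 (an augmin subunit, -0.49, limma adjusted p = 0.24) and SVBP (the partner of the vasohibins, -0.24, limma adjusted p = 0.255). In the other lists it was TBCD (-0.25, limma adjusted p = 0.306), FIGNL1 (0.16, limma adjusted p = 0.465) and the chaperonin subunit CCT8 (0.10, limma adjusted p = 0.479). The probe sets of TUBD1 and HAUS2 carry the _x_at mark, and those of TBCD and CCT8 the _s_at mark. With oligomeric Aβ against the 6 h controls none of the 72 was called either, as for all genes (0%). Of the 72, 1 had an unadjusted p under 0.05, where 2.78% of all genes did.

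**Figure D4:**
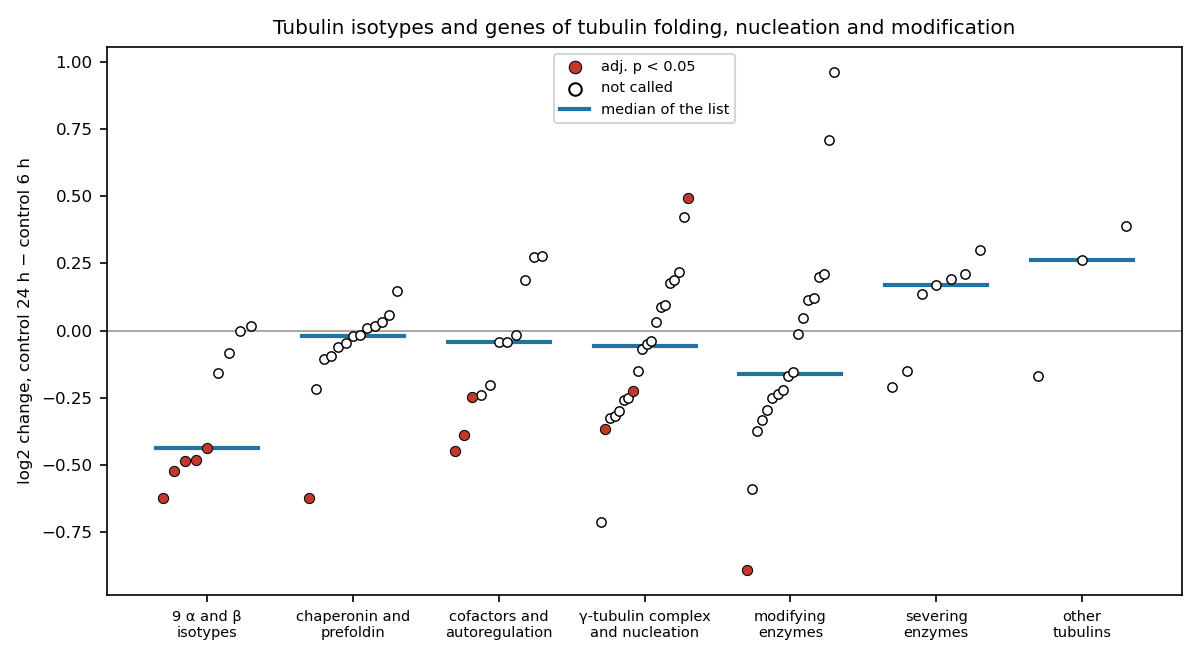
Log2 change in the 24 h against the 6 h controls for the 9 isotypes and for the tested genes of 6 lists on tubulin folding, nucleation, modification and severing; points are genes, filled where the adjusted p was under 0.05, and bars are list medians. The isotypes' median is -0.44 with 5 filled points, and the other lists' medians lie between -0.16 and 0.26.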

How the data were processed

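RNA of SH-SY5Y cells was measured on 12 arrays in 4 groups of 3, grouped by the treatment label. The authors deposited log2 signals per probe set from MAS5, per the submitters' processing notes, with no version given. The trimmed mean of the linear signals (2% to 98%) was 100 on every array, so no normalization was added. Gene names came from the platform annotation: 41091 probe sets carried 1 symbol, 1801 several and 11721 none, and 62 were controls. Probe sets averaging at least log2 3.79 (a signal of 13.8, the median) were kept, 27281 in all, and each gene was represented by its brightest one. limma 3.58.1 in R 4.3.3 (version 1.17.8 of data.table read the tables) fitted group means to all 12 arrays across all genes with a trended prior, tested 4 contrasts and adjusted p-values over 11767 genes by Benjamini-Hochberg. The median SE of a change was 0.13. The script was tested on simulated data.

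The genes, their lists and the tests were chosen with earlier results of these data known. The text names all 9 isotypes and their probe sets; of each list, up to 4 genes called per comparison, or the smallest p with fibrillar Aβ; and for likeness the 1 gene with the highest correlation. A probe set carrying both TUBB2A and TUBB2B was left out by the rule of 1 symbol. Alternatives varied the normalization, filter, pseudocount, probe set choice, prior, array weights, arrays in the fit, a 3′ less 5′ covariate and a replicate block, or left out each array in turn. Arrays with the same number were not treated as pairs, as no label says that a number marks a shared culture or day. Their deviations correlated at -0.02 to 0.09. For fibrillar Aβ with the 24 h controls they gave 0.03 to 0.08, where arrays with different numbers reached at most 0.002. Between the controls they gave 0.04 to 0.08, where different numbers reached at most -0.004. For oligomeric Aβ with the 6 h controls different numbers reached 0.093. Whether the numbers mark pairs was not tested.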

Additional observations from a re-analysis of the deposited data

How the results depend on the processing

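The count of genes called was 0 with oligomeric Aβ against the 6 h controls and 0 for the difference of responses under each alternative run for them. The fit of only the groups compared needs all 4 groups for that difference and gave no separate value. With fibrillar Aβ, the count of 1 gene and 1 probe set became 0 with a constant prior variance (TUBB2A limma adjusted p = 0.119), with only the 2 groups fitted and with the 3′ less 5′ covariate, and ranged from 0 to 1 as arrays were left out. The cause was not tested. Over all alternatives with all arrays TUBB2A differed by 0.39 to 0.52. Between the controls, 4 to 6 genes were called over the alternatives with all arrays and 4 to 5 as arrays were left out; with all arrays, the 4 came from the unmarked probe set of TUBB (-0.32, limma adjusted p = 0.056) and the 6 from median centring. Probe sets called there numbered 5 with a constant prior variance, up to 11 with median centring, and 6 to 9 as arrays were left out. With the replicate block, which treats arrays of the same number as pairs, 5 genes and 9 probe sets were called between the controls. TUBB2A was called there with fibrillar Aβ (limma adjusted p = 0.0159), and the block changed no call of a gene. Of the single-gene results under alternatives, 882 kept their side of the threshold, 8 lost a call, 1 gained it and 0 called values changed sign. Most of the 882 were results not called in the main fit, which had no call to lose. TUBB2A with fibrillar Aβ lost its call in 3 of 13 other settings and in 3 of 12 fits without 1 array. Between the controls, TUBB lost its call in 1 of the 13 settings and TUBB3 in 1 of the 12 fits. Median centring moved the share of higher calls over all genes from 32.2% of 1375 to 7.34% of 1908 between the controls and from 67.1% of 140 to 86.1% of 166 with fibrillar Aβ, and put all 9 isotypes on the lower side with oligomeric Aβ; quantile normalization turned the uncalled TUBB2B to 0.01 and TUBA1A to -0.11 between the controls. With 3 arrays a group, smaller changes could not be resolved.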
